A study of Mus musculus with 2 samples.

Results

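The genes described here make, desaturate, store and export sterols and fatty acids. They are 37 named genes, all found once in a table of 35275 genes, and 35 of them had at least 50 reads over both libraries, the minimum for a gene to count as measured. By role they comprise 16 enzymes of sterol synthesis, a group of 5 with SREBP regulators and a sterol carrier, 11 genes of fatty acid synthesis, 4 genes of cholesterol export and storage, and the glycerolipid phosphatase gene Lpin1. The genes were chosen by name, with their read counts and ratios in these same libraries known. Their values are therefore a description, and no test was made on them.

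RNA came from TEa cells sorted from spleen, CD4 T cells whose transgenic receptor recognises a peptide of the I-E alpha chain of BALB/c mice. For the exhausted library, TEa cells of C57BL/6 strain were placed by adoptive transfer in CB6F1 hosts, which are F1 animals with a BALB/c and a C57BL/6 parent and so carry the antigen in their own tissue. For the effector library, TEa cells of that strain went into WT C57BL/6 hosts that received skin from a Balb/c donor. The series compared abundant with moderate antigen, and recipient strain and graft differ along with antigen amount, so their parts cannot be told apart. The labels state neither age, sex, nor time after transfer, nor how many animals were pooled. Each group held 1 library, with 8508129 reads in the exhausted and 7844445 in the effector library, so there is no replicate check and the 95% intervals below cover counting error only. Cd4 had 15463 reads in the exhausted and 9272 in the effector library and Cd3e had 11432 and 7624, while of the CD8 T cell markers Cd8a was at 0 reads in each (a count of 0 allows up to 3) and Cd8b1 had 81 in the exhausted and 164 in the effector library, 2.19-fold lower (1.67 to 2.89). Trac and Thy1, also T cell genes, were 2.11-fold and 2.43-fold lower. The 30 markers of other cells (CD8 T, B, macrophage, dendritic, NK, neutrophil and erythroid) summed to 418 reads in the exhausted and 525 in the effector library, and 6 of them were at 0 in both. The NK marker Klrb1c alone gave 229 of these reads in the exhausted and 36 in the effector library.

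Cells build cholesterol from acetyl-CoA through mevalonate, farnesyl diphosphate, squalene and lanosterol. The transcription factor SREBP2 (gene Srebf2) switches on most genes of that route when membrane sterol is low, and SREBP1 (gene Srebf1) favours fatty acid synthesis. SCAP escorts both factors out of the endoplasmic reticulum, and INSIG proteins hold them there when sterol is plentiful. When sterol is high, LXR receptors raise export genes such as Abca1 and Abcg1. T cells that divide after antigen need both kinds of lipid for new membrane.

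The sterol enzymes were lower in the exhausted library, and the fatty acid genes mostly were not. A gene is called lower or higher here when scaled reads differed by 2-fold or more between the exhausted and the effector library and the counting interval left out a ratio of 1. Of 16 sterol enzymes, 12 were lower and none was higher, and of 9 measured fatty acid genes 2 were lower and none was higher. Over all 9999 measured genes 7.07% were lower and 6.65% higher, or 13.7% in either direction. The median log2 ratio was -1.92 for the sterol enzymes, -0.04 for the fatty acid genes, 0.17 for the 4 export and storage genes and -0.002 for all measured genes. In all, 16 of the 35 measured members were lower and none was higher. At a limit of 1.5-fold 21 were lower and none higher, against 13.6% and 13.7% of all measured genes, or 27.3% in either direction. Counting intervals lay wholly above equality for 6 members, against 31.3% of all measured genes. These are bulk libraries, so fewer cells that express a gene and less RNA of it per cell cannot be told apart.

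**Figure D1:**
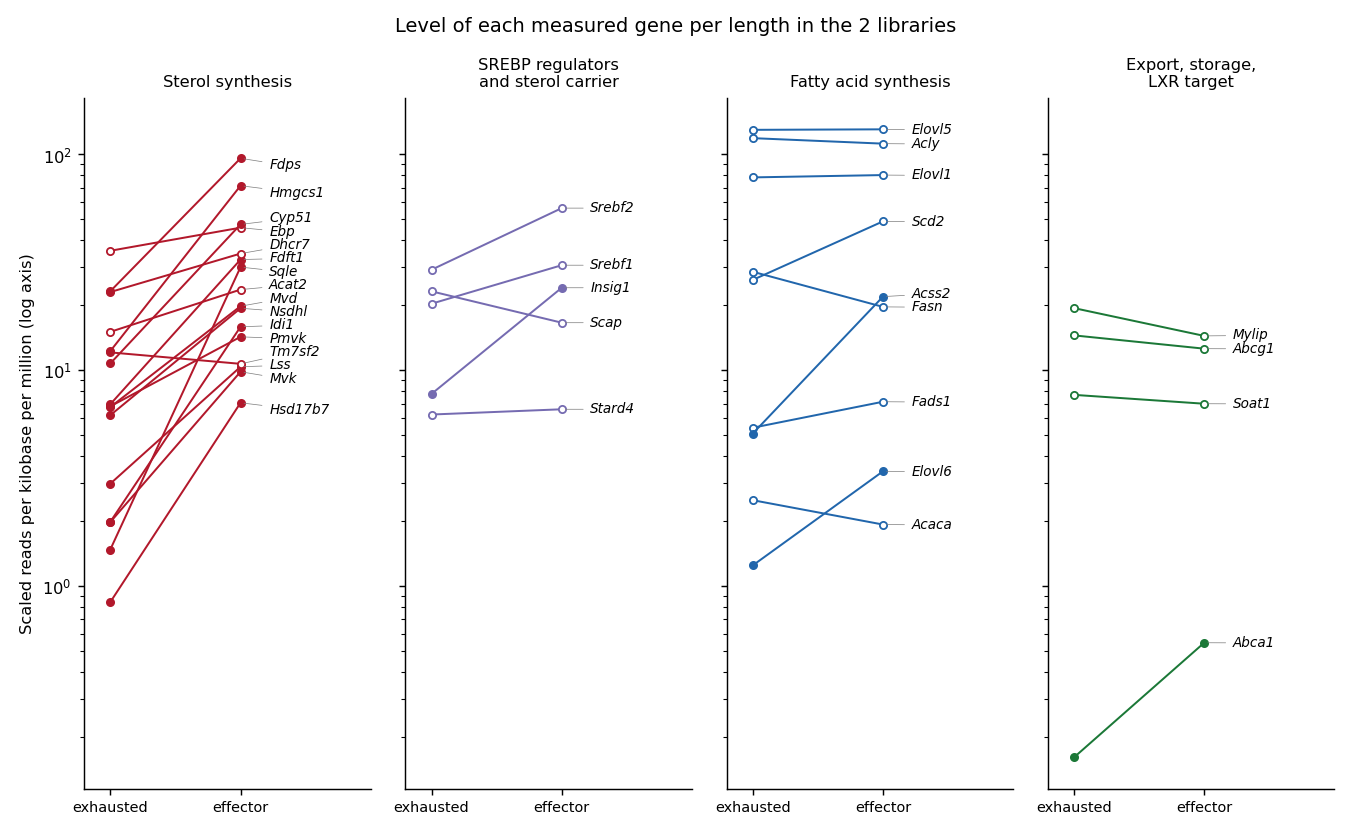
Scaled RPKM (reads corrected for library size and gene length, log axis) of each measured gene except Lpin1, by role. Lines join the exhausted to the effector library, with filled points for genes called lower. Most sterol lines climb steeply towards the effector library, as for Sqle at 1.48 against 30.1, while Elovl5, Acly and Elovl1 run level.

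The first enzymes of the route turn acetyl-CoA into farnesyl diphosphate, and 6 of these 7 genes were lower. Hmgcs1, which makes the HMG-CoA that feeds the mevalonate step (ENSMUSG00000093930, mm10 chromosome 13, 119690462 to 119708086), had 337 reads in the exhausted and 1820 in the effector library. That was 5.84-fold lower (5.20 to 6.58). Before it stands Acat2, which joins acetyl-CoA units and was the gene of this stage not called, with 288 against 418 reads and a log2 ratio of -0.65. The near-identical neighbour gene Acat3, which could share its reads, had 0 and 2 reads.

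The kinases and the decarboxylase that convert mevalonate to an isoprene unit were all lower, by unequal amounts. Mevalonate kinase, Mvk, had 40 reads in the exhausted and 184 in the effector library (4.98-fold lower, 3.52 to 7.19). Phosphomevalonate kinase, Pmvk, had 69 against 134 reads, which at 2.10-fold (1.56 to 2.85) was the member just inside the 2-fold limit. Mvd, the decarboxylase, had 101 against 274 reads (2.93-fold lower). Idi1, the isomerase that supplies the reactive isoprene (chromosome 13, 8885501 to 8892451), stood further down with 51 against 378 reads, 8.02-fold lower (5.97 to 11.0). Fdps, whose product farnesyl diphosphate also serves protein prenylation, was 4.13-fold lower (3.59 to 4.78), with 245 against 936 reads. In GENCODE M21 its exons overlap those of Gm43738 on the same strand. Gm43738 has no counts of its own here, so the counts of Fdps are uncertain.

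The 3 enzymes from farnesyl diphosphate to lanosterol showed the lowest summed ratio of any stage. Sqle, squalene epoxidase, a rate-limiting enzyme of the sterol branch (ENSMUSG00000022351, chromosome 15, 59315077 to 59331192), had 56 reads in the exhausted and 1055 in the effector library. It was 20.4-fold lower (15.6 to 27.2), the lowest ratio among the members and the 44th lowest of 9999 measured genes. Its share of the reads of all 16 sterol enzymes was 1.71% in the exhausted library (exact interval 1.29 to 2.22%) and 10.5% in the effector library (9.88 to 11.1%). Fdft1, squalene synthase, which commits farnesyl diphosphate to sterols (chromosome 14, 63145153 to 63177793), was 4.69-fold lower (3.96 to 5.57), at 169 against 732 reads. Lss, which folds epoxidised squalene into lanosterol, had 177 against 570 reads (3.48-fold lower). Summed over the 3 genes, 47.3 scaled CPM (a read count corrected for library size) in the exhausted library stood against 300.1 in the effector library, 6.34-fold lower (5.70 to 7.07).

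The last stage, lanosterol to cholesterol, was split, with 3 of 6 genes lower. Cyp51, the demethylase that acts first on lanosterol (chromosome 5, 4081145 to 4104746), had 359 reads in the exhausted and 1464 in the effector library, 4.41-fold lower (3.93 to 4.96). Nsdhl and Hsd17b7 act together to remove further methyl groups. Nsdhl had 114 against 330 reads (3.13-fold lower, 2.52 to 3.91) and Hsd17b7 33 against 256 (8.39-fold lower, 5.83 to 12.4). The 3 genes not called were Ebp, a sterol isomerase, Dhcr7, the reductase of a final step, and Tm7sf2, a sterol reductase. Ebp had 530 against 627 reads (log2 ratio -0.36) and Dhcr7 551 against 768 (-0.59). Tm7sf2 had 154 against 126 reads, a log2 ratio of 0.18 with an interval from 0.89 to 1.44 of the ratio that includes equality. It was the only one of the 16 whose ratio lay above 1, and its exons overlap those of Vps51 on the same strand (465 and 453 reads).

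The scarcest sterol enzymes in the exhausted library were Hsd17b7, Mvk, Idi1 and Sqle, at 33, 40, 51 and 56 reads, and their ratios have the correspondingly wide intervals given above. In 15 of the 16 the counting interval lay wholly below equality, against 31.6% of all measured genes. Of the 16, 8 were at least 4-fold lower, a size that 2.38% of measured genes reached, and 3 (Sqle, Hsd17b7 and Idi1) at least 8-fold lower, reached by 1.13%. Sqle alone passed 16-fold, as did 0.61% of measured genes. Together the sterol enzymes took 385.3 scaled CPM in the exhausted and 1282 in the effector library, 3.33-fold lower (3.20 to 3.46). Hmgcs1, Cyp51 and Sqle had the most reads of the 16 in the effector library (1820, 1464 and 1055), and they did not carry the difference alone. Without these 3, a choice made after the values were seen, the sum of the other 13 was still 2.46-fold lower (2.35 to 2.58). Ebp and Dhcr7 made up 16.2% and 16.8% of sterol enzyme reads in the exhausted library, against 6.23% and 7.63% in the effector library.

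**Figure D2:**
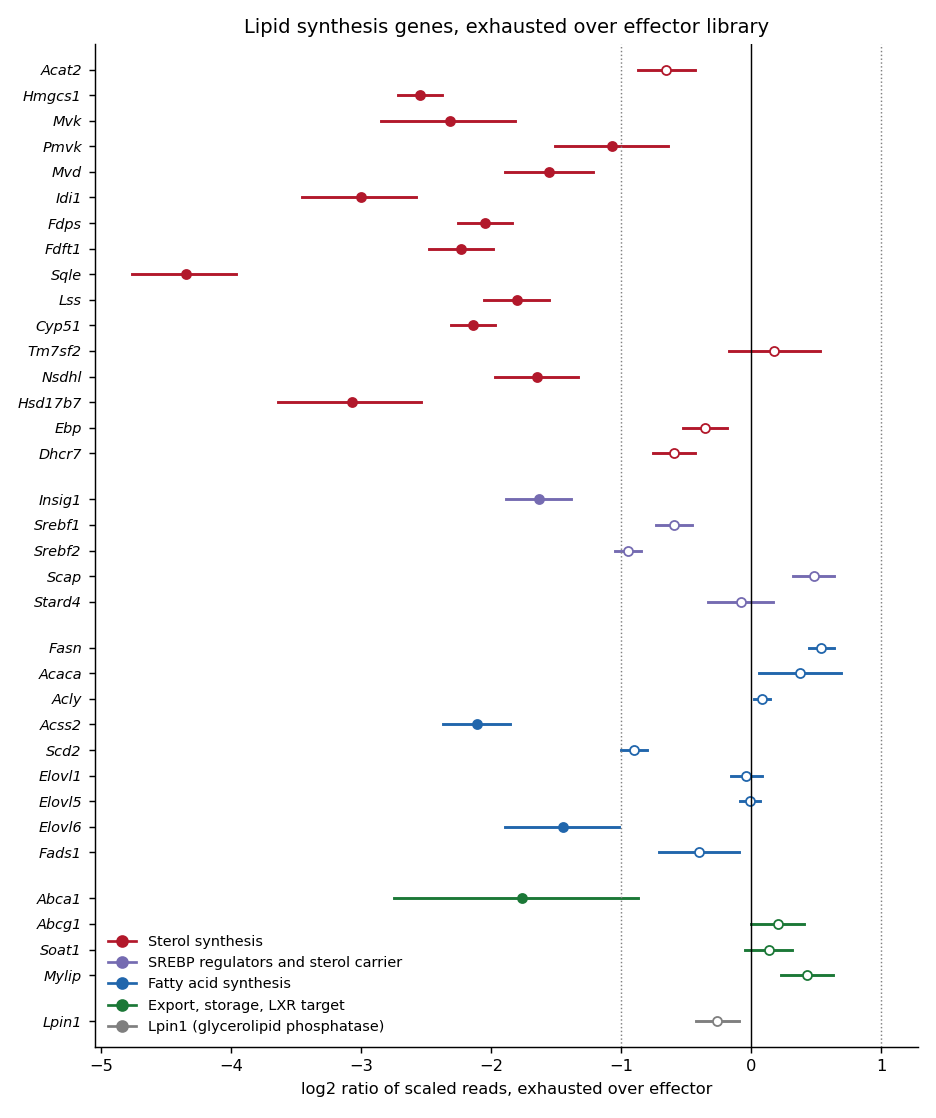
The log2 ratio of scaled reads, exhausted over effector, for the 35 measured genes in pathway order, with 95% counting intervals, filled points for genes called lower and dotted lines at 2-fold. The sterol enzymes from Hmgcs1 to Cyp51 all lie left of the lower dotted line, while 7 of the 9 fatty acid genes lie between the lines.

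Promoter sequences from RefSeq (GRCm38.p6), 250 bases before to 50 after each annotated start, were found for 29 of the 37 genes. SREBPs bind sterol response elements and act with NF-Y, which binds the CCAAT box. The windows were searched on both strands for the sterol element core TCACNCCAC, for CCAAT and for the E-box CACGTG. They were also searched for an exact form of the LXR element DR4, AGGTCA repeated after a spacer of 4 bases. A shorter core, CACNCCAC, was added after the values were seen and lies inside the longer one. CCAAT was found in 12 of 13 sterol enzyme genes with a window, the exception being Acat2, and in 5 of 8 fatty acid genes. It occurs in 41.1% of all 27025 genes with a window and in 43.7% of the 7479 measured ones, and genes with several starts have several windows. All 9 sterol enzymes called lower with a window held it, as did 3 of the 4 not called. The starts are those of RefSeq and were not matched to the counted genes. For Pmvk, among those 9, the match lies in a window beginning at 89454291, while the counted gene begins at 89459118. The longer core was found in Hmgcs1, and in 1.44% of all genes with a window. The shorter core was found in 2 of the 13 sterol enzyme genes (Hmgcs1, which was lower, and Acat2, which was not called) and in 3 of all 29 members, the other being Insig1, against 7.12% of all genes. CACGTG was found in 2 of the 13 sterol enzyme genes, in 8.09% of all genes and in 12.4% of the measured ones. DR4 in its exact form was found in none of the members, in 0.0148% of all genes and in none of the measured ones. A pattern that rare could hardly be found among 29 genes, so its absence says nothing about LXR elements in the members. Abcg1 had no window. A match is letters in a window, not evidence of binding.

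The 6 windows below were chosen to set low members beside one that was not low: Hsd17b7, Idi1 and Hmgcs1, the sterol enzymes with the lowest ratios among those with a window, then Insig1, the sensor that SREBP itself induces, Acss2, the lowest fatty acid gene, and Fasn, the highest ratio. Capitals mark CCAAT boxes, which read ATTGG on the opposite strand, and also the E-box and the sterol cores, each searched on both strands. Hmgcs1 has a core 137 bases before its start among 4 CCAAT boxes, Hsd17b7 has 3 CCAAT boxes, Idi1 has 2, and Fasn has 3, of which 2 overlap as an inverted pair. The Fasn window lies wholly upstream of the Fasn gene as counted, which ends at 120824178 on the minus strand. The Hmgcs1 window also ends before the counted gene start, 119690462. Sequence between these windows and the counted genes was not searched, so Fasn and the low members are not compared over like stretches.
Hsd17b7, chr1:169969156-169969455, minus strand: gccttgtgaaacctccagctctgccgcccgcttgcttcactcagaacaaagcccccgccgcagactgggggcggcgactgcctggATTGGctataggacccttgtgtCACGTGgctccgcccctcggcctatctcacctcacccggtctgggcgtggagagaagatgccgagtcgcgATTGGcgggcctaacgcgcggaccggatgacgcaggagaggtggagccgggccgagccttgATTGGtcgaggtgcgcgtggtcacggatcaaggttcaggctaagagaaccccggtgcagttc
Idi1, chr13:8885356-8885655, plus strand: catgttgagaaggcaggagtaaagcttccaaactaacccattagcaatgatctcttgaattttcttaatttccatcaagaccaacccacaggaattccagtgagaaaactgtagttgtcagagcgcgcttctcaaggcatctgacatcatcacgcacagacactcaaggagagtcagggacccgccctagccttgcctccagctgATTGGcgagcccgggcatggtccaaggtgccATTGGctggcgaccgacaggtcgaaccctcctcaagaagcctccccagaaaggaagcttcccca
Hmgcs1, chr13:119690101-119690400, plus strand: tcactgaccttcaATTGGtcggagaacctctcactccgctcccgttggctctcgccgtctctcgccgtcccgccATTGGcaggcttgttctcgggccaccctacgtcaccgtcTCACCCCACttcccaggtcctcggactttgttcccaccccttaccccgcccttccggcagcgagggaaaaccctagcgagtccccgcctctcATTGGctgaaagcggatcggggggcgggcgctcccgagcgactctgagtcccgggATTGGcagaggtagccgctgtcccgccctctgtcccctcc
Insig1, chr5:28071162-28071461, plus strand: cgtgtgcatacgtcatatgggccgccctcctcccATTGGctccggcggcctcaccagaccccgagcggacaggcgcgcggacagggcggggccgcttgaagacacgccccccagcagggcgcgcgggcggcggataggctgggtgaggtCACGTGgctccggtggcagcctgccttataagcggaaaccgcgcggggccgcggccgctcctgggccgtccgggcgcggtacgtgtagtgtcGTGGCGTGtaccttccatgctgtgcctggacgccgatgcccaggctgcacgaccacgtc
Acss2, chr2:155517793-155518092, plus strand: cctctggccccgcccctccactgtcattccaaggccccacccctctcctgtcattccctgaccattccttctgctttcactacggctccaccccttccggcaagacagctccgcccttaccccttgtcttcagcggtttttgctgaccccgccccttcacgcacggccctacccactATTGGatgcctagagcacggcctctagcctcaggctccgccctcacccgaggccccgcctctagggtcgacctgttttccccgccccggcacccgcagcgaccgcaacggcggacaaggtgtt
Fasn, chr11:120824498-120824797, minus strand: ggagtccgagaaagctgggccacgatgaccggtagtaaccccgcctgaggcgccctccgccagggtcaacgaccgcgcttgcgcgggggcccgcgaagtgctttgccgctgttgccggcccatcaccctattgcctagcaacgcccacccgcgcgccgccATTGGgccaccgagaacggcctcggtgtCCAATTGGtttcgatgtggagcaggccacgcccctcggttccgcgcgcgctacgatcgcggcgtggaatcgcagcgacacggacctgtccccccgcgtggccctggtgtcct

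Of the regulators, Insig1 was lower and the rest were not called. Insig1, the endoplasmic reticulum anchor that is itself an SREBP target (ENSMUSG00000045294, chromosome 5, 28071363 to 28078662), had 178 reads in the exhausted and 511 in the effector library, 3.11-fold lower (2.61 to 3.70). Srebf2, which encodes SREBP2 (chromosome 15, 82147266 to 82205376), had 1239 against 2211 reads. At 1.93-fold lower (1.80 to 2.07) it was the member just outside the 2-fold limit, with a log2 ratio of -0.95. Srebf1 had 743 against 1036 reads (log2 ratio -0.59), and the table does not separate its isoforms. Scap, which encodes the SREBP escort, lay in the other direction with 833 against 551 reads, a ratio of 1.40 (1.25 to 1.56) that is short of 2-fold. Stard4, which encodes a cytosolic sterol carrier, had 270 against 264 reads, a ratio of 0.95 (0.79 to 1.12). Per length, Srebf2 stood above Srebf1 in both libraries, at 29.2 and 20.3 scaled RPKM in the exhausted library and 56.4 and 30.7 in the effector library.

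Fatty acid synthesis did not share the sterol pattern. Acetyl-CoA for both routes comes from citrate through Acly or from acetate through Acss2, and these genes differed from each other. Acly had 4477 reads in the exhausted and 3903 in the effector library, a ratio of 1.06 (1.02 to 1.11). Acss2 (ENSMUSG00000027605, chromosome 2, 155517948 to 155585724) was 4.31-fold lower (3.61 to 5.17), with 156 against 622 reads. Per length, the level of Acly was 23.4 times that of Acss2 in the exhausted library and 5.12 times in the effector library.

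The genes that build the chain itself had more reads in the exhausted library, without reaching 2-fold. Fasn, fatty acid synthase (ENSMUSG00000025153, chromosome 11, 120805940 to 120824178), had 2331 against 1481 reads, a ratio of 1.46 (1.36 to 1.55) and the highest among the members. Acaca, which makes the malonyl-CoA that Fasn uses, had 202 against 144 reads, a ratio of 1.30 (1.04 to 1.62). Set beside a sterol enzyme, the level per length of Hmgcs1 was 0.43 times that of Fasn in the exhausted library and 3.64 times in the effector library.

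Among elongases and desaturases, Elovl6 was lower and the others measured were not called. Elovl6, which lengthens palmitate to stearate, had 63 reads in the exhausted and 159 in the effector library, 2.73-fold lower (2.03 to 3.72). Elovl5, which lengthens polyunsaturated chains, had 3075 against 2858 reads, a ratio of 0.99 (0.94 to 1.05), and Elovl1, for very long chains, had 1205 against 1142, a ratio of 0.98 (0.90 to 1.06). Scd2, which places the first double bond in saturated chains, had 1215 against 2098 reads, 1.87-fold lower (1.74 to 2.01) and just short of the limit. Its paralogue Scd1 was nearly absent, with 0 and 1 reads, both under the floor of 3. Fads1, a desaturase of polyunsaturated chains, had 159 against 194 reads (log2 ratio -0.40), and its partner Fads2 had 5 and 9 reads and was not measured.

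Cholesterol export and storage genes showed no common direction. Abca1, the transporter that loads cholesterol onto apolipoprotein A-I, was lower but scarce, with 14 reads in the exhausted and 44 in the effector library (3.40-fold lower, 1.83 to 6.72). Abcg1, which passes cholesterol to HDL particles, was the more abundant transporter, with 445 against 357 reads and a log2 ratio of 0.20. Soat1, which esterifies cholesterol for storage, had 547 against 460 reads, a log2 ratio of 0.14. Mylip, an LXR target that encodes a ubiquitin ligase, had 505 against 347 reads, a ratio of 1.35 (1.17 to 1.55). The last 3 genes were all short of 2-fold. Lpin1, whose phosphatase makes diacylglycerol, had 562 against 622 reads, a log2 ratio of -0.26.

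**Figure D3:**
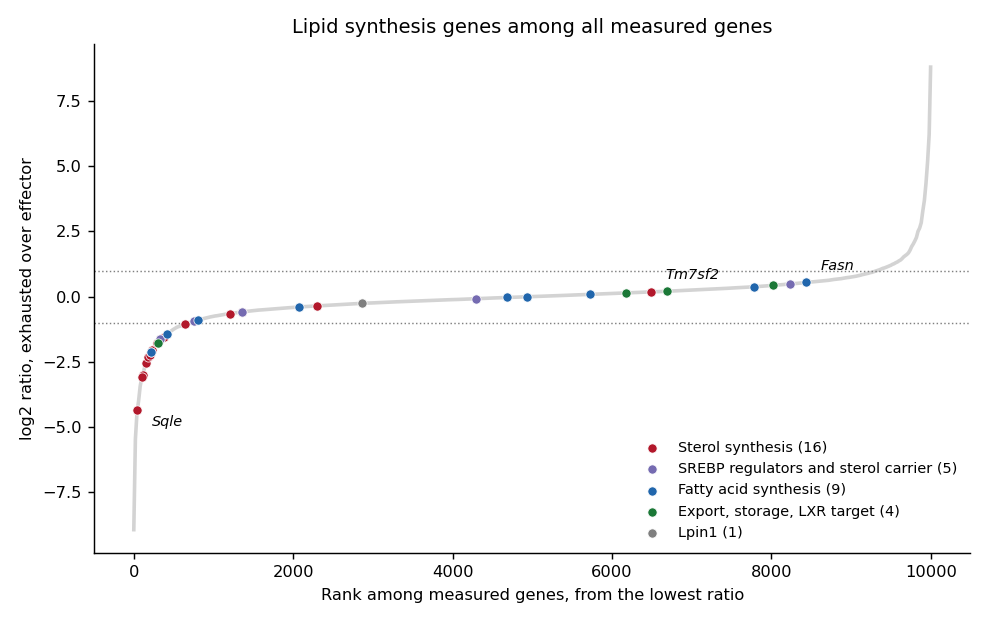
The log2 ratio of each measured member, exhausted over effector, against its rank among 9999 measured genes (grey line), with dotted lines at 2-fold. Sterol enzymes crowd the low end, 11 of the 16 being among the 400 lowest ratios, while most fatty acid and export genes lie further along, with Acss2 (223rd) and Abca1 (301st) also within that range.

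Set against each other, the median log2 ratio of the sterol enzymes was 1.89 below that of the fatty acid genes (-1.92 against -0.04), and 15 of 16 sterol enzymes lay below the fatty acid median. One fatty acid gene, Acss2, lay below the sterol median. The sterol median was 2.09 below that of the export and storage genes, and the fatty acid median was 0.21 below it. Summed reads gave the same order, since the fatty acid genes together took 1517 scaled CPM in the exhausted and 1605 in the effector library. The levels per length changed order accordingly. In the exhausted library Fdps, Hmgcs1 and Cyp51 stood 8th, 15th and 18th among the 35 measured members, against 3rd, 5th and 8th in the effector library, while Elovl5 and Acly were first and second in both. Ebp, Tm7sf2, Acat2 and Pmvk stood higher in the exhausted library, at 4th, 16th, 13th and 22nd against 9th, 26th, 15th and 23rd. Dhcr7 was 10th in both.

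**Figure D4:**
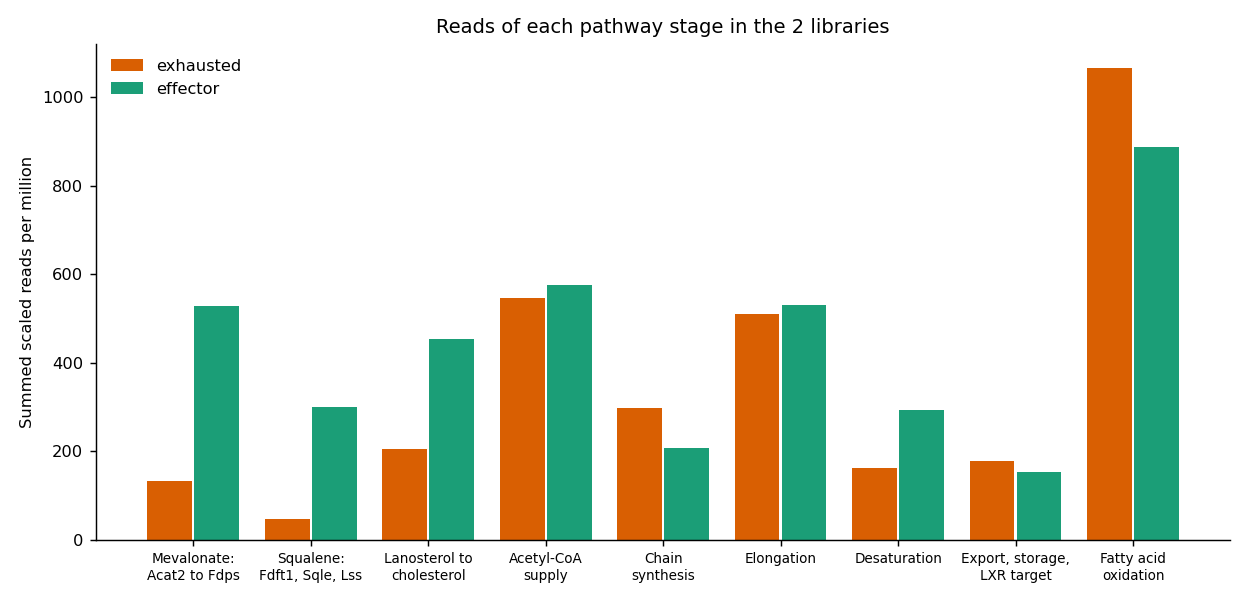
Summed scaled CPM of each pathway stage in the exhausted (left bars) and effector (right bars) library. The mevalonate, squalene and lanosterol stages are 133.1, 47.3 and 204.9 in the exhausted library against 527.6, 300.1 and 454.6 in the effector library, and chain synthesis is 298.1 against 206.9.

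Other genes of these pathways were counted by lists drawn up from their roles, beside the 7.07% of all measured genes called lower and 6.65% called higher. Of 13 sterol genes outside the members, 4 were lower and none higher, with a median log2 ratio of -0.34. Msmo1, which removes methyl groups from sterols, had 306 reads in the exhausted and 1070 in the effector library (3.78-fold lower, 3.33 to 4.31). Sc5d, a desaturase late in the route, had 534 against 1037 reads (2.10-fold lower, 1.89 to 2.34). Rnf139 and Mbtps2, which act on the SREBP machinery, had log2 ratios of -0.54 and -0.34.

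Of 14 further fatty acid genes 10 were measured, 1 was lower and none higher, with a median log2 ratio of 0.03. Over all measured genes 7.07% were lower, so 1 of 10 is near that background. The lower gene was the elongase Elovl7, with 6 against 87 reads (15.7-fold lower, 6.92 to 43.9). Mid1ip1, Hacd2 and Mlxip had log2 ratios of -0.60, 0.57 and 0.37. Of 12 export and oxysterol genes 8 were measured, 3 were lower and none higher, with a median of -0.30. Npc2, which hands cholesterol out of lysosomes, had 766 against 1741 reads (2.46-fold lower). Apoe had 28 against 53 reads (2.05-fold lower), and Soat2, a second esterifying enzyme, had 0 against 55. With 0 reads set to the floor of 3, Soat2 was 19.8-fold lower, and by the exact counting limit it was at least 15.6-fold lower. Soat2 passed the read minimum through the effector library alone. Elovl7 and Apoe, with 6 and 28 reads in the exhausted library, also reached it only with their effector reads. The LXR gene Nr1h2 had 802 against 670 reads, a log2 ratio of 0.15, as had Abca7, and Lpcat3, an LXR target, had a log2 ratio of -0.61. Of 12 fatty acid oxidation genes 2 were higher and none lower, with a median of 0.10, where 6.65% of all measured genes were higher. Cpt1a, which admits fatty acids to mitochondria, had 2152 against 941 reads (2.11-fold higher, 1.96 to 2.29), and Decr1, which handles unsaturated chains, had 733 against 256 (2.65-fold higher, 2.29 to 3.06). Acadm, Slc25a20 and Eci1 had log2 ratios of -0.80, -0.32 and 0.31, short of 2-fold.

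Some measured features moved with these genes. Macrophage and monocyte markers, cells that also handle sterol, summed to 33 reads in the exhausted and 109 in the effector library over 9 genes, neutrophil markers to 3 and 62 over 3, and erythroid markers to 13 and 89 over 4. Cd8b1 was lower as well, as given above. The part of these markers in the result was not tested. Of the 2 NK markers, Klrb1c was in the other direction, with 229 against 36 reads, while Ncr1 had 0 against 5. B cell markers summed to 20 reads in the exhausted and 21 in the effector library over 5 genes, within which Cd79a had 18 against 8 and Cd79b 2 against 12. Dendritic cell markers summed to 39 and 39 over 5. The B cell marker Ms4a1, the dendritic cell marker Siglech and the neutrophil marker Ly6g were among those at 0 in both libraries. Exons of 13 members overlap another gene in GENCODE M21, 4 of them on the same strand. Of the 37 members, 21 have the same coordinates in M21 as in the counts, so M21 differs from the annotation that was counted. The same-strand neighbours of Fdps, Srebf1 and Scd2 have no counts here. Fdft1 overlaps Ctsb (6364 and 4477 reads), Cyp51 overlaps Akap9 (851 and 726) and Elovl1 overlaps Cdc20 (270 and 230), all on the other strand, and the sources do not state whether counting used strand.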

How the data were processed

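The deposited file holds raw read counts, whole and unscaled, for every gene in 1 column per library, beside gene length and coordinates per the file headers. Per the submitters' processing notes, STAR 2.6 and genome build mm10 were used. No source used here names the counting program, its strand setting or the annotation. Per the labels' protocols, libraries were low-input total RNA, and with no molecular identifiers in the table, intervals and floors cover counting error only.

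Counts were divided by effective library sizes (trimmed mean of M-values, edgeR 4.0.16, R 4.3.3, over genes with at least 50 reads). Each ratio has an exact Clopper-Pearson 95% interval (scipy 1.17.1), and a library at 0 reads was set to 3. With 1 library per group no p-value was computed. Levels between genes were set per kilobase of the table's gene length. The calling functions were tested on simulated data. Of the lists, 3 symbols were matched through the Ensembl ID. Members and lists were chosen with earlier results of these data known; all members are named, and list genes past the 2-fold limit plus up to 3 more, except that some genes of the lists are not reported here. Alternatives were scaling by upper quartile, by total counts and by size factors of DESeq2 1.42.0, read minimums of 1 and 500, limits of 1.5-fold or an interval wholly beyond 2-fold, and summed counts.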

Additional observations from a re-analysis of the deposited data

How the results depend on the processing

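The 16 members called lower and the 0 called higher were the same in number under DESeq2 size factors, total counts, upper quartile factors and no read minimum. With at least 500 reads 8 were lower, of 24 members left. A limit of 1.5-fold gave 21, adding Acat2, Dhcr7, Scd2, Srebf1 and Srebf2, and an interval wholly beyond 2-fold gave 14, losing Abca1 and Pmvk. Across the 3 other scalings all 105 ratios of members kept their call, and Elovl5, close to equality, changed sign under 2 of them. The sterol median log2 ratio was -1.65, and its difference from the fatty acid median -1.61, without Sqle, Cyp51 and Hmgcs1, a choice made after seeing the data that leaves out low members by construction. Depth limits Scd1, Fads2 and Abca1. No paired analysis was possible because each group holds 1 library.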

Other observations

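Of 10 listed genes of glycerolipid synthesis and lipid breakdown, 7 were measured, 1 was lower in the exhausted library and none was higher, with a median log2 ratio of -0.38. Over all measured genes 7.07% were called lower and 13.7% in either direction, and 1 call among 7 genes cannot be told from that background. Lpin2, a second phosphatidate phosphatase, had 201 reads in the exhausted and 413 in the effector library (2.22-fold lower, 1.87 to 2.64). Pnpla2, the lipase that starts the breakdown of stored triglyceride, had 1085 against 601 reads, a ratio of 1.67 (1.51 to 1.85) that is short of 2-fold. Agpat3 and Dgat1, which act in triglyceride and phospholipid synthesis, had log2 ratios of -0.47 and -0.46.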
